A study of Mus musculus with 6 samples.

Results

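The genes described here are 10 endothelial and angiogenic genes, namely Vegfa, Kdr, Flt1, Pecam1, Cdh5, Tek, Angpt1, Angpt2, Nos3 and Emcn, in inguinal subcutaneous white fat (iWAT) of mice that lack Zip13 and of WT mice. They were chosen by name, and every array probe whose transcript identifier was a RefSeq transcript of one of them was taken, which gave 13 probes for the 10 genes. Vegfa, Kdr and Nos3 had 2 probes each and the other members 1. The 13 probes were among 33041 that passed the filter on dim signal, and the 10 genes were among 15302 with such a probe. RNA of 3 WT and 3 Zip13-KO iWAT samples was hybridized to 6 Agilent 1-colour microarrays, each of which carries 1 labelled sample and reads a transcript as the light of its spots. The mice were 10 weeks old, and the WT animals were littermates. They had been backcrossed onto C57BL/6J, with the same number of generations listed for all 6 samples. Zip13 is another name of Slc39a13, a zinc transporter. In the Zip13-KO mice a neomycin cassette takes the place of a run of its exons, listed as the same run for all 3 samples. This holds in every cell of the body, so the endothelium, the adipocytes and the blood cells all lack Zip13. The study fed powdered food, either a standard kind or one high in fat. Which of them the array mice had, their sex, and whether each sample came from 1 animal are not given in the sources used here. The p values therefore measure the spread between these samples.

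Vegfa encodes the main growth factor for blood vessels, and fat is one of its sources in this tissue. It acts on endothelial cells through Kdr (VEGFR2), the receptor that carries most of the signal, and is bound by Flt1 (VEGFR1), which also exists as a soluble form that traps the ligand. A separate system, the angiopoietins Angpt1 and Angpt2 acting on the receptor Tek (Tie2), controls whether vessels are stable or prone to remodel, and endothelial cells are held together by Cdh5 (VE-cadherin) and Pecam1. White fat that takes on features of brown fat is known for a dense capillary bed.

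The targeted gene was read first, as a check of the labels. Slc39a13 was at 11.29, 10.87 and 10.72 on the log2 scale of normalized intensity in WT replicates 1, 2 and 3 and at 6.76, 6.66 and 6.47 in Zip13-KO replicates 1, 2 and 3. It fell by 4.33 (SE 0.17, limma, adjusted p = 0.00123), and no array went against its label. Whether the probe lies in the exons that were removed is not given in the sources used here. The 6 arrays shared 1 slide and 1 scan. The first position number in each array's barcode was read here as the slide column, which is an inference. By that number, column 1 held the WT arrays with Zip13-KO replicate 1, and column 2 held Zip13-KO replicates 2 and 3. The Zip13-KO arrays were a little dimmer before normalization: 58.8% to 60.4% of their spots were well above background and their median signal was 33.2 to 35.02 intensity units, against 62.5% to 63.2% and 39.2 to 40.6 units in WT. No spot was saturated. A probe was called when its adjusted p was under 0.05 and its difference was over 0.58 on the log2 scale, which is 1.49-fold.

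Of the 13 member probes, 7 were called higher in Zip13-KO iWAT and 0 were called lower. The 7 probes belong to 5 of the 10 genes: Vegfa and Nos3 with both of their probes, Kdr with 1 of its 2, Flt1 and Cdh5. Among all 33041 probes, 8.34% were called higher and 7.13% lower. No member probe was below WT at an unadjusted p under 0.05 either (0 of 13), and 0 were called lower by the methods' t-test, adjusted or not. The median difference of the 13 probes was 0.77, against -0.02 over all probes. Every Zip13-KO array lay above every WT array at 9 of the 13 probes and below at 0, while this held for 24.9% and 25.1% of all probes. The levels come from whole tissue, in which more cells of a type and more RNA per cell cannot be told apart.

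**Figure D1:**
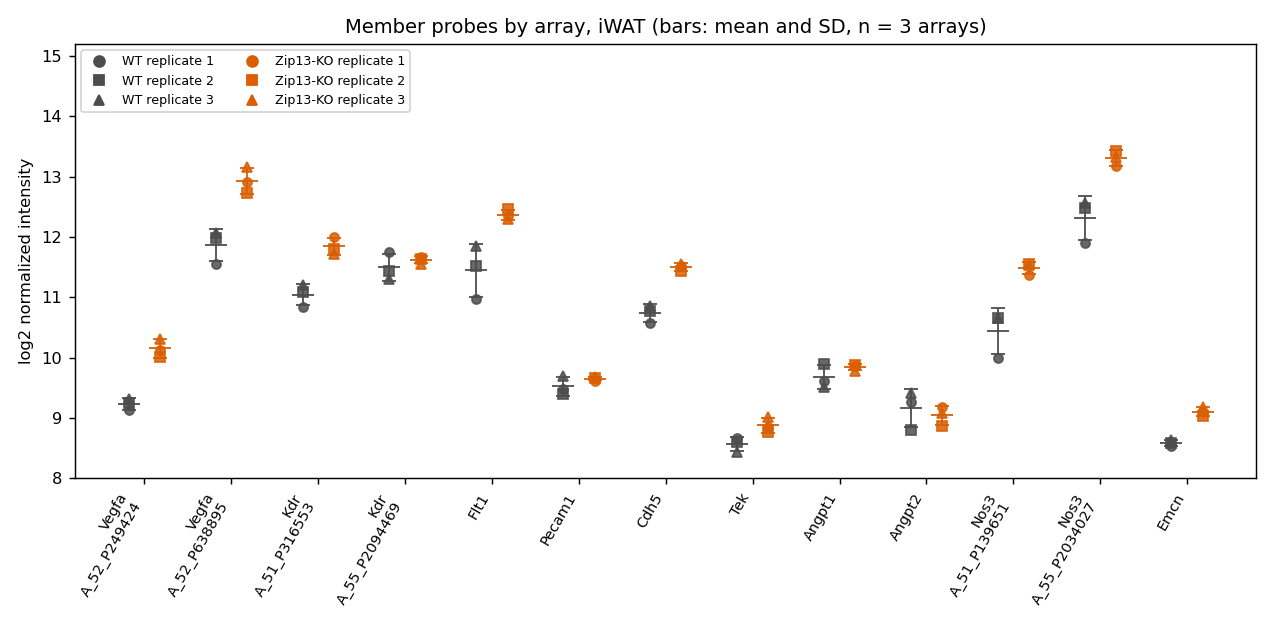
Normalized log2 intensity of the 13 member probes on each of the 6 arrays, with WT in grey and Zip13-KO in orange, 1 marker shape for each replicate number, and the mean and SD of 3 arrays. At both Vegfa probes, 1 Kdr probe, Flt1, Cdh5, Tek, both Nos3 probes and Emcn the 3 Zip13-KO points lie above all WT points, and at the other 4 probes the genotypes overlap. Heights of different probes are not comparable.

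Among the secreted ligands, Vegfa was higher in the Zip13-KO iWAT and the angiopoietins were not called. The Vegfa probe A_52_P249424, listed for transcript NM_001025257, was at 9.13, 9.26 and 9.31 in WT and 10.13, 10.01 and 10.32 in Zip13-KO, a difference of 0.92 (SE 0.11, adjusted p = 0.00826), or 1.90-fold. The Vegfa probe A_52_P638895, listed for NM_001025250 and spotted 2 times on each array, was at 11.56, 11.98 and 12.06 in WT and 12.91, 12.73 and 13.16 in Zip13-KO, a difference of 1.06 (SE 0.18, adjusted p = 0.0124), or 2.09-fold. At both probes WT replicate 1 was the lowest array and Zip13-KO replicate 3 the highest, and the genotypes did not overlap. The 2 probes carry transcript names of the same gene, and which splice forms each can bind is not given in the sources used here.

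Angpt1, the ligand that activates Tek and is known from perivascular cells, was at 9.61, 9.90 and 9.52 in WT and 9.86, 9.88 and 9.79 in Zip13-KO. The difference of 0.17 had a 95% confidence interval of -0.12 to 0.46 (adjusted p = 0.319). The highest and the lowest of the 6 values were both WT, so the genotypes overlapped. Angpt2, which endothelial cells release and which opposes Angpt1 at Tek in many settings, was at 9.26, 8.81 and 9.42 in WT and 9.18, 8.88 and 9.08 in Zip13-KO. The difference was -0.12 (interval -0.55 to 0.31, adjusted p = 0.645), it was 0.01 without WT replicate 3, and Angpt2 was the only member probe with a difference below 0. These intervals leave room for differences of up to about the size of the threshold for Angpt2 and below it for Angpt1.

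Among the receptors, Flt1 was called, Kdr was called at 1 of 2 probes and Tek was not called. Flt1 was at 10.98, 11.52 and 11.84 in WT and 12.35, 12.46 and 12.30 in Zip13-KO. The WT arrays spread over a far wider range than the Zip13-KO arrays (SD 0.44 against 0.08, n = 3 each), with WT replicate 1 lowest. The difference of 0.92 (SE 0.22, adjusted p = 0.0279) was 1.89-fold, and it was the called member most open to the choice of arrays. Without WT replicate 2 or without Zip13-KO replicate 1, 2 or 3 its adjusted p was 0.0630, 0.0807, 0.0867 and 0.0659, with a difference of at least 0.69 whichever array was left out. The probe's transcript is NM_010228, and whether it binds the soluble form of Flt1 is not given in the sources used here. Tek was at 8.66, 8.60 and 8.44 in WT and 8.85, 8.77 and 9.01 in Zip13-KO. All 3 Zip13-KO arrays of Tek lay above the WT arrays, but the difference of 0.31 (SE 0.11, interval 0.05 to 0.57, adjusted p = 0.0738) was not called.

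Kdr was called at 1 of its 2 probes, both of which the array's design lists for transcript NM_010612. Probe A_51_P316553 was at 10.85, 11.09 and 11.20 in WT and 12.01, 11.80 and 11.72 in Zip13-KO, a difference of 0.80 (SE 0.13, adjusted p = 0.0117), or 1.74-fold. Probe A_55_P2094469 was at 11.75, 11.43 and 11.31 in WT and 11.68, 11.63 and 11.56 in Zip13-KO, a difference of 0.13 (SE 0.13, interval -0.19 to 0.44, adjusted p = 0.491). WT replicate 1 was the lowest array at the first probe and the highest array at the second. The second probe has 1 spot on each array. The first has 10, with an SD of 0.04 to 0.10 between its spots on the log2 scale, and before normalization its Zip13-KO spots ran from 2688 to 4066 intensity units, all above its WT spots at 1757 to 2653. Within each array, the first probe minus the second was between -0.90 and -0.11 in WT and between 0.16 and 0.33 in Zip13-KO. Those ranges did not overlap, and the changes at the probes lay 0.67 apart (p = 0.1 in a two-sided exact permutation test, which cannot give less for 3 against 3 arrays). The same comparison was made for the 3 genes with 2 probes, and the adjusted value was 0.3 for each. The changes at the Nos3 probes lay 0.06 apart (exact permutation p = 0.2) and those at the Vegfa probes by -0.14 (exact permutation p = 0.3). What each Kdr probe binds along the transcript was not analysed here.

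Vegfa, Kdr and Flt1 form a ligand and receptor set of which a probe of each was called, so the DNA in front of their start sites is shown side by side. The 250 bases before the start of transcription are from RefSeq on GRCm38.p6, on the minus strand in all cases, at chr17:46032378-46032627 for Vegfa, chr5:75978456-75978705 for Kdr and chr5:147726012-147726261 for Flt1. They are written 5′ to 3′, and capitals mark the GC box GGGCGG on either strand.
Vegfa: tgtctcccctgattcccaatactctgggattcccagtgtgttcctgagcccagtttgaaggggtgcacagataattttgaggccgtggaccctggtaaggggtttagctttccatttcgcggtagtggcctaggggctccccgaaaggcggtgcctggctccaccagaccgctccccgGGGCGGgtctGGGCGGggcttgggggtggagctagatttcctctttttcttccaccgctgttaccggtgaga
Kdr: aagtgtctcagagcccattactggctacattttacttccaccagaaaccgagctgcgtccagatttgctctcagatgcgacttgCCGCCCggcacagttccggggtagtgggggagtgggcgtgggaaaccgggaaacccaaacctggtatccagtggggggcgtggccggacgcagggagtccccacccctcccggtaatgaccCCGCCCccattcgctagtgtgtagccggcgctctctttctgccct
Flt1: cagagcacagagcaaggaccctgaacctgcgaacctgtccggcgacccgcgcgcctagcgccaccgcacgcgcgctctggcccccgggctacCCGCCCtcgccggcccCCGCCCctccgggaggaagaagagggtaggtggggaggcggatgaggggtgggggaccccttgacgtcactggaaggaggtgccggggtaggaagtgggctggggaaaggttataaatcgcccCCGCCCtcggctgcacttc
The table of promoters matched 5 of the 10 members, the others being Tek and Emcn, and it lists another start inside Vegfa, whose stretch holds 1 GC box and is not shown. The Vegfa stretch holds 2 GC boxes, which begin 72 and 62 bases before the start. Kdr holds 2, at 166 and 45 bases, and Flt1 holds 3, at 158, 142 and 19 bases. The 250 bases before Tek and Emcn hold 0, and 32.7% of the 32851 promoters in the table hold at least 1. Base composition goes with this count: G and C make up 59.2% of the Vegfa stretch, 61.6% of Kdr and 70.4% of Flt1, but 51.2% of Tek and 40.8% of Emcn.

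Another 4 short motifs were looked for on both strands in the same stretches, without regard to overlaps. ACGTG, the core that hypoxia-inducible factors bind in one of its forms, was in none of these 5 stretches and in 16.6% of all promoters. The stretch before the other Vegfa start held both forms, ACGTG at 211 bases and GCGTG at 218. In the 5 stretches the second form, GCGTG, was 131 and 89 bases before the start of Kdr, 184 before Flt1 and 11 before Emcn, and was in 28.2% of all. TATAAA, the TATA box, was 31 bases before the start of Flt1 and in 12.4% of all, and GGAAG, the core of ETS factor sites, was in every stretch but that of Tek and in 64.1% of all. These are matches of letters in a short window, not sites shown to be bound.

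Of the 3 members at the surface and junctions of endothelial cells, Cdh5 was called and Pecam1 and Emcn were not. Cdh5, the cadherin of endothelial junctions, was at 10.57, 10.78 and 10.86 in WT and 11.52, 11.43 and 11.55 in Zip13-KO. Its difference of 0.77 (SE 0.10, adjusted p = 0.00927), or 1.70-fold, was called whichever array was left out. Pecam1, an adhesion molecule shared by endothelial cells, platelets and some leukocytes, was at 9.48, 9.40 and 9.69 in WT and 9.62, 9.67 and 9.68 in Zip13-KO. The Zip13-KO values of Pecam1 lay inside the WT range, and the interval of the difference, -0.11 to 0.37 around 0.13 (adjusted p = 0.354), stayed under the threshold. Emcn, a sialomucin of capillary and venous endothelium, was at 8.54, 8.58 and 8.63 in WT and 9.10, 9.04 and 9.18 in Zip13-KO. Its spread within each genotype was small (SD 0.04 and 0.07, n = 3), and the difference of 0.52 (SE 0.08, adjusted p = 0.0110), 1.43-fold, passed the p threshold but not the fold threshold.

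Nos3 encodes the nitric oxide synthase of endothelium, which relaxes the vessel wall and lies downstream of Kdr signalling. Probe A_51_P139651 was at 10.00, 10.66 and 10.66 in WT and 11.37, 11.56 and 11.54 in Zip13-KO, a difference of 1.05 (SE 0.20, adjusted p = 0.0160), or 2.07-fold. Probe A_55_P2034027 was at 11.90, 12.49 and 12.56 in WT and 13.17, 13.43 and 13.33 in Zip13-KO, a difference of 0.99 (SE 0.19, adjusted p = 0.0169), or 1.99-fold. The 2 probes, both listed for NM_008713, ordered the arrays alike at their ends, with WT replicate 1 lowest and Zip13-KO replicate 2 highest. On the 10 spots of the first probe the SD within an array was 0.03 to 0.06, and before normalization its spots ran from 1021 to 1868 intensity units in WT and from 2417 to 2997 in Zip13-KO. Both probes missed the p threshold without Zip13-KO replicate 1 (adjusted p = 0.0504 for each) and without Zip13-KO replicate 2 (adjusted p = 0.0581 and 0.0613), with differences of 0.93 to 1.11 there.

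**Figure D2:**
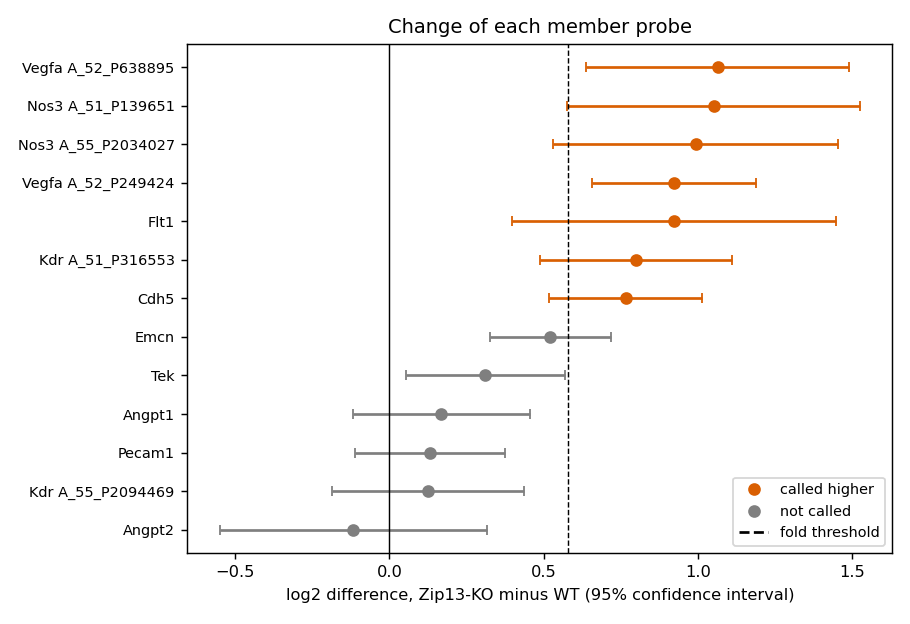
Difference between the Zip13-KO and WT means of each member probe on the log2 scale, with the 95% confidence interval of the limma fit (3 arrays per genotype), called probes in orange and the others in grey, and the fold threshold of 0.58 as a dashed line. The 7 called probes lie between 0.77 and 1.06, Emcn at 0.52 is just below the line, and the intervals of Angpt1, Pecam1, Angpt2 and the second Kdr probe include 0.

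WT replicate 1 stood apart in these genes and in others. It was the lowest of the 3 WT arrays at 8 of the 13 member probes, among them all 7 that were called, while it was lowest at 40.0% of all probes. It was also the lowest WT array for 12 of 12 adipocyte markers, and the highest for 10 of 12 macrophage markers and 10 of 10 markers of stromal progenitors and fibroblasts. Without it the same number of member probes, 7, was called, and the median difference of the 13 probes was 0.68 in place of 0.77. Leaving out Zip13-KO replicate 1 or Zip13-KO replicate 2 left 4 called member probes. With the column on the slide as a term the comparison rests on Zip13-KO replicate 1 against the WT arrays, since only column 1 holds both genotypes. The differences were then 0.90 and 1.04 for Vegfa, 0.96 for the first Kdr probe, 0.91 for Flt1, 0.78 for Cdh5 and 0.93 and 0.86 for Nos3. In that fit 0 member probes were called, as were 4 higher and 31 lower of all 33041. The sizes were near those of all 6 arrays, and the p threshold was not reached.

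The label of the group was compared with 36 other endothelial genes, a list that holds no member. All 36 were measured, 14 were called higher and 0 lower, with 25 higher and 2 lower at an unadjusted p under 0.05. Over the 15302 genes, each read at its brightest probe, 10.0% were called higher and 7.94% lower. The median difference of the list was 0.47, against -0.000512 over all genes. Read in the same way, at 1 probe a gene, the 10 members had a median of 0.42, which is not above that of the list. In a fit of 1 probe a gene, 4 of the 10 members and 14 of the 36 genes were called higher. Gpihbp1, which holds lipoprotein lipase on the capillary wall, rose by 1.25 (SE 0.21, adjusted p = 0.0131), and Esm1, a secreted proteoglycan of sprouting endothelium, rose by 1.15 (SE 0.13, adjusted p = 0.00764). Adgrl4, an endothelial adhesion receptor, rose by 1.02 and Tmem204 by 0.89. The 14 called genes include others besides these, and the rest of the list was not called. Of that rest, Sox18 was at 0.52 and Egfl7 at 0.47 (adjusted p = 0.0388 and 0.0171), both under the fold threshold. Icam2 differed by 0.02 (adjusted p = 0.880), Plvap, of fenestrated vessels, by -0.10, Vwf, the clotting factor stored in endothelium, by -0.29, and Cd34, also found on fibroblast progenitors, by -0.75 (adjusted p = 0.108). The summed signal of the 36 genes was 134855 to 142156 intensity units in WT and 168536 to 174793 in Zip13-KO. Such a sum, here and in the lists below, weighs bright probes most, and the brightest here, Sdpr, rose by 0.74. Gene by gene, 28 of the 36 were above 0 and 8 below. The rise did not hold for every endothelial list. Of 11 other genes of endothelial adhesion and activation, described at the end, 1 was called higher and 2 lower, with a median of -0.28.

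The list's median gives a yardstick for the members on each array. Relative to the WT mean of each gene, that median stood at -0.12, -0.05 and 0.12 in WT and at 0.46, 0.40 and 0.45 in Zip13-KO. Since a called probe had to pass 0.58, it was likely to lie above that median. Taking the list's median away on each array left differences of 0.47 and 0.61 for Vegfa, 0.60 and 0.54 for Nos3, 0.47 for Flt1, 0.34 for the first Kdr probe and 0.31 for Cdh5. Emcn moved with the list, with 0.07 left, and Tek was at -0.14. The second Kdr probe (-0.33), Pecam1 (-0.32), Angpt1 (-0.29) and Angpt2 (-0.57) were below the list's median difference. These values rest on 1 list. In two-sided exact permutation tests of the 13 probes, p was 0.1, the smallest possible, for the 7 called probes, Pecam1 and Angpt2, and 0.3 to 0.5 for the others, so none passed. Whether more endothelial cells or more RNA in each gave the list's shift was not tested.

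**Figure D3:**
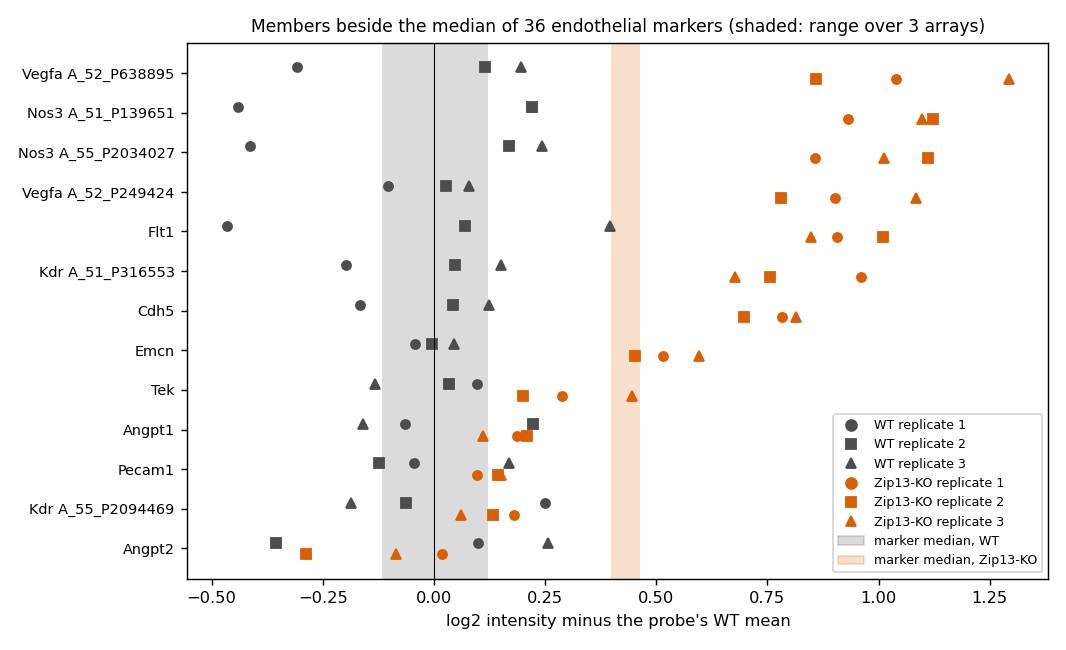
Log2 intensity of each member probe on each array minus its WT mean, with WT in grey and Zip13-KO in orange and 1 marker shape for each replicate number. Shaded bands show the range over 3 arrays of the median of 36 endothelial markers on the same scale, -0.12 to 0.12 in WT and 0.40 to 0.46 in Zip13-KO. The Zip13-KO points of Vegfa, Nos3, Flt1, Cdh5 and the first Kdr probe lie to the right of the orange band, those of Emcn inside it or just to its right, those of Tek inside it or to its left, and those of Pecam1, Angpt1, Angpt2 and the second Kdr probe to its left.

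Of the 7 other genes of the VEGF family that were measured, Vegfb, a ligand of Flt1 known from tissues rich in mitochondria, was the 1 called gene, at 10.58, 11.31 and 11.15 in WT and 11.99, 11.84 and 11.93 in Zip13-KO, a difference of 0.91 (SE 0.19, adjusted p = 0.0219). The lymphatic ligands Vegfc and Vegfd differed by -0.21 and -0.64 (adjusted p = 0.232 and 0.167), the lymphatic receptor Flt4 by -0.05, the placental ligand Pgf by -0.04, and the co-receptors Nrp1 and Nrp2 by 0.25 and -0.22. The median of the 7 was -0.05, and 0 were called lower, with 0 below WT at an unadjusted p under 0.05. In a list of 6 genes, made up of partners of Tek and of angiopoietin-like genes, 0 were called in either direction. At an unadjusted p under 0.05, 3 were higher and 0 lower. These 3 were Tie1, the second Tie receptor, at 0.42 (adjusted p = 0.0299), Ptprb, a phosphatase that holds Tek in check, at 0.55 (adjusted p = 0.0305), and the angiopoietin-like Angptl2 at 0.49 (adjusted p = 0.0465). All 3 passed the p threshold and not the fold threshold, and 1 of the 2 Ptprb probes was called. Tie1 and Ptprb are in the list of 36 as well.

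The Notch pathway acts beside Kdr when vessels sprout and when arteries and veins are set apart. Of 19 Notch and arteriovenous genes 8 were called higher and 0 lower, with a median of 0.58 (at an unadjusted p under 0.05, 13 higher and 1 lower). The target genes Nrarp, Heyl and Hey1 rose by 1.45 (adjusted p = 0.00948), 1.36 (adjusted p = 0.00740) and 1.07 (adjusted p = 0.00907). The receptor Notch4, which endothelial cells express, rose by 0.95 (adjusted p = 0.0150) and the Notch ligands Dll4 and Jag1 by 0.94 and 0.74. The pair that separates arterial and venous cells, Efnb2 and Ephb4, rose by 0.63 and 0.61. Notch1 differed by -0.23 (adjusted p = 0.104). Of the other target genes in the list, Hes1 differed by 0.36 (adjusted p = 0.491) and was not called, and Hey2 had no kept probe.

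In the pathway of nitric oxide around Nos3, 3 of 10 genes were called higher and 2 lower, and the median was 0.19. Pde5a, which breaks down the cyclic GMP that nitric oxide raises, rose by 1.28 (SE 0.12, adjusted p = 0.00703). Nos2, the inducible synthase, rose by 0.86 (adjusted p = 0.0103) and Gucy1b1, a subunit of the nitric oxide receptor, by 0.61 (adjusted p = 0.00943). Arg2, an arginase that competes for the substrate of the synthases, fell by 1.50 (SE 0.41, adjusted p = 0.0420), with 1 of the 3 Zip13-KO arrays well above background. Ddah1, which clears an inhibitor of the synthases, fell by 0.85 (adjusted p = 0.0110). Nostrin, a partner that draws Nos3 from the membrane, was at -0.53 (adjusted p = 0.0161) and was not called.

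Regulators and companions of Vegfa in hypoxia and in thermogenic fat were divided. Of 18 genes, 6 were called higher and 1 lower, and the median was 0.10. Ppargc1a, a coactivator of mitochondrial genes that can induce Vegfa, rose by 1.10 (adjusted p = 0.00969), and its partner Esrra rose by 0.73. The prolyl hydroxylases Egln3 and Egln1, which mark hypoxia-inducible factors for breakdown, rose by 0.99 and 0.91, Pdk1 by 0.69, and Epas1, the factor that endothelium and adipocytes express, by 0.66 (adjusted p = 0.0392). Car9, a carbonic anhydrase, fell by 1.11 (adjusted p = 0.0141). Hif1a differed by -0.06 (adjusted p = 0.624), and Slc2a1 and Adm by -0.15 and -0.73, none of them called. Bnip3 was at 0.60 (adjusted p = 0.0715) with every Zip13-KO array above the WT arrays, and 1 of its 3 probes was called higher.

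Of 24 other factors and inhibitors of angiogenesis, 1 was called higher and 6 lower, with a median of -0.20. Pdgfb, by which endothelial cells attract pericytes, rose by 0.82 (adjusted p = 0.0111). The thrombospondins Thbs2 and Thbs1, which inhibit angiogenesis, fell by 1.99 (SE 0.55, adjusted p = 0.0428) and 1.43 (SE 0.27, adjusted p = 0.0156). Thbs2 was at 12.03, 10.27 and 9.85 in WT and 8.60, 8.57 and 9.02 in Zip13-KO, so WT replicate 1 stood well above the other WT arrays. Tnfaip2 fell by 1.23, Tnfrsf12a by 1.03, Ecm1 by 0.82 and Anxa3 by 0.75.

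**Figure D4:**
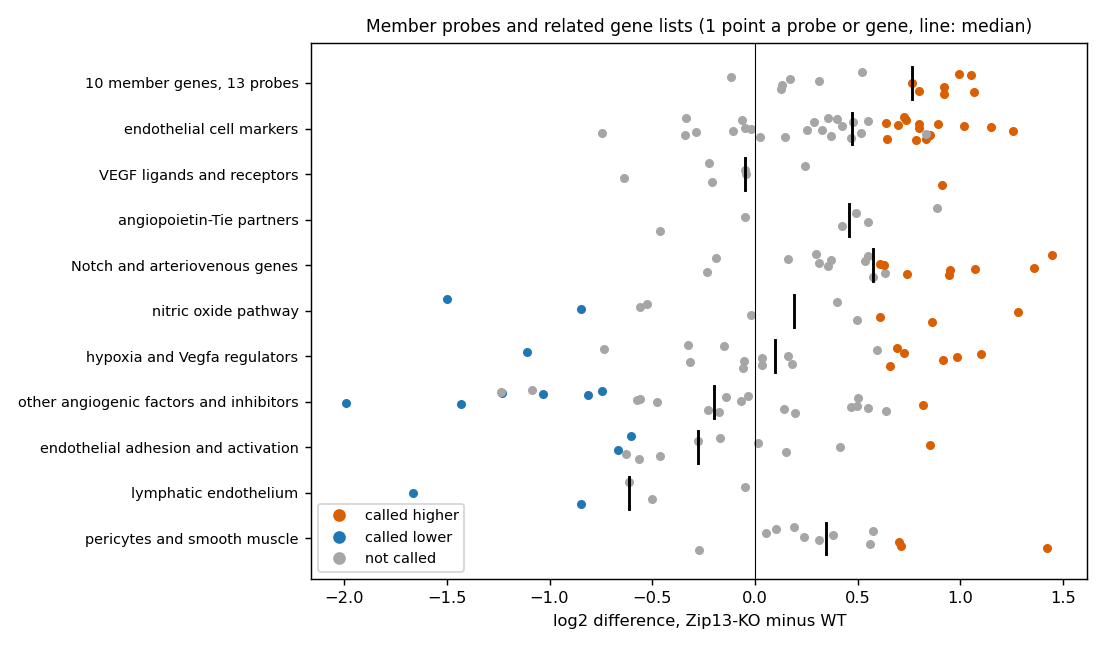
Difference between Zip13-KO and WT on the log2 scale for the 13 member probes and for the genes of 10 related lists, 1 point a probe or gene, with genes called higher in orange, called lower in blue and not called in grey, and a black line at each list's median. The member probes have a median of 0.77, the 36 endothelial markers 0.47 and the Notch and arteriovenous genes 0.58, while the median of the VEGF partners is -0.05 and that of the lymphatic genes -0.61. Members are shown at every probe and list genes at their brightest probe only, so these medians are not on the same basis. At 1 probe a gene the median of the members is 0.42.

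Markers of other cells in the tissue also differed between the genotypes. Of 12 pericyte and smooth muscle markers, 3 were called higher and 0 lower, with a summed signal of 33604 to 41798 intensity units in WT and 43518 to 46181 in Zip13-KO. Those were Cspg4, at 1.42 (SE 0.23, adjusted p = 0.0116), Rgs5 at 0.71 and Kcnj8 at 0.70. Of 10 thermogenic adipocyte markers 8 were called higher and 0 lower, with a summed signal of 36911 to 59683 units in WT and 165185 to 254721 in Zip13-KO, and Ucp1, the uncoupling protein of brown and beige fat, rose by 5.16 (SE 0.81, adjusted p = 0.0112). Of 12 markers of adipocytes at large, all 12 differed by more than 0 (median 0.65), and their summed signal was 624225 to 821699 units in WT and 933839 to 974812 in Zip13-KO. Of these, 3 were called higher and 0 lower, with 9 higher and 0 lower at an unadjusted p under 0.05. Those called were the glycerol channel Aqp7 at 1.17, the adipogenic factor Pparg at 1.13 and the lipase Lipe at 0.77. Of 12 macrophage markers, 9 were called lower and 0 higher, with a summed signal of 91608 to 148883 units in WT and 43474 to 57363 in Zip13-KO, none of them at background on any array. Of 10 markers of stromal progenitors and fibroblasts 3 were called lower and 0 higher, namely Ly6a at -1.37, Dpp4 at -1.05 and Thy1 at -0.77. Of 8 lymphocyte, 7 muscle, 5 mammary and 4 erythroid markers with a kept probe, 0 were called in either direction, with 6, 0, 0 and 3 below WT and 0, 0, 1 and 0 above it at an unadjusted p under 0.05. The part of these cells in the levels of the members was not tested.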

How the data were processed

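RNA of 3 WT and 3 Zip13-KO iWAT samples was read on 1-colour Agilent mouse arrays of the SurePrint G3 8x60K kind. The authors deposited the output of Feature Extraction (version 11.5.1.1), whose processed signal is an intensity with background and spatial trend removed and no normalization between arrays, with 0 or 1 flags for spots well above background, and a table of log2 values. The deposited log2 table, quantile normalized according to the supplementary methods, ranks the spots of every array as their uncorrected median signal does (rank correlation 1). It was used as an alternative.

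The processed intensity was taken as log2, control and outlier spots were left out, each probe got the mean of its spots, and quantile normalization was applied across the 6 arrays. Probes stayed in if either genotype had all of its 3 arrays well above background. Probes were named by RefSeq accession, without version, on GRCm38.p6 (28331 of 55681 probes). The array's design was annotated on mm9, so no gene positions are given, and the promoters carry the RefSeq table's own positions. Genotypes were compared with limma 3.58.1 (lmFit and eBayes, genotype only) in R 4.3.3 with statmod 1.5.0, over 33041 probes, 13 of them the members. P values were adjusted by Benjamini-Hochberg over all of them, and a gene of a list was read at its brightest kept probe. Tested on simulated data, these steps found 63% of 100 probes changed by 1 and 89% of 100 probes changed by 2 on the log2 scale. There were 7 false calls among the 33033 simulated probes. Far fewer probes were changed there than were called in the data (2757 higher and 2356 lower), so these rates need not hold for the data. Local background was 31 to 39.5 intensity units, and the number of arrays limits the precision.

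The members and the 18 lists, which hold 219 other genes, were chosen with earlier results of these data known, and so lend no independent support. Named were every member, Slc39a13, in each pathway list up to 4 called genes with the largest rise and 4 with the largest fall, the genes behind counts of 5 or fewer, and for each cell type list the marker with the highest mean level and those at background. Other genes named were chosen after their values were seen. The alternatives were 75th percentile scaling, normexp background correction (offset 50), the deposited table, no filter, a filter on all 6 arrays, named probes only, 1 probe a gene, a trended robust prior, the replicate number as a block, the slide column, the methods' t-test, a ratio of medians, other thresholds and leaving out each array. The study's mixture-model filter and integrative test were not rebuilt.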

Additional observations from a re-analysis of the deposited data

How the results depend on the processing

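Over 21 alternatives, 270 values of single member probes were recomputed, of which 241 kept their direction and their side of the thresholds, 26 lost the call, 1 gained it (Emcn with no fold threshold) and 2 changed sign. Both sign changes were Angpt2, at 0.018 with the slide column as a term and 0.0097 without WT replicate 3. Leaving out each array gave Angpt2 differences of -0.30 to 0.0097. Losses were spread over Flt1 (9 alternatives), the Nos3 probes (5 each), the first Kdr probe (3), the Vegfa probes (1 and 2) and Cdh5 (1). No alternative called a member probe lower.

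Member probes called higher, 7 of 13, were 0 with the slide column as a term, 4 with the methods' t-test after adjustment, 2 at an adjusted p under 0.01, and 4 of 10 with 1 probe a gene, where the median difference was 0.42 in place of 0.77. Leaving out each array gave 4 to 7 member probes and medians of 0.68 to 0.83. Endothelial markers called higher, 14 of 36, were 9 with no filter, 0 with the slide column, 8 with the methods' t-test after adjustment and 3 at an adjusted p under 0.01. Leaving out each array gave 6 to 12 higher, the fewest without Zip13-KO replicate 2 (6), Zip13-KO replicate 1 (7) and WT replicate 1 (8), and 0 to 1 lower. With no fold threshold 1 marker, Fli1, was called lower.

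Over all probes, 2757 higher and 2356 lower became 1830 and 1346 with normexp, 1576 and 1282 with 1 probe a gene, 4 and 31 with the slide column, 1557 and 1086 with the methods' t-test after adjustment, 720 and 561 at an adjusted p under 0.01, and 4688 and 4179 with no fold threshold. The deposited table gave 1554 lower. Leaving out each array gave 1365 to 2715 higher and 1113 to 2404 lower, the fewest without Zip13-KO replicate 1 (1365 and 1113) and Zip13-KO replicate 2 (1367 and 1150).

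The genotypes share replicate numbers, but arrays with the same number did not deviate together (r of -0.04, 0.00 and -0.03 over probes), so the numbers were not taken as pairs. With the number as a replicate block, 5 member probes, 1738 higher and 1507 lower probes were called, and the first Kdr probe and Flt1 lost the call (adjusted p = 0.0508 and 0.0573). The cause of these losses was not tested. With 3 arrays per genotype, differences under about the threshold of 0.58 are not excluded at the 6 member probes that were not called, except where the interval is given as narrower.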

Other observations

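Genes of endothelial adhesion and of lymphatic endothelium had medians below 0. Of 11 adhesion and activation genes, 1 was called higher and 2 lower, with a median difference of -0.28 on the log2 scale. Jam2, a junctional adhesion molecule, rose by 0.85 (limma, adjusted p = 0.00747). Ackr1, the chemokine receptor of venules, fell by 0.67 (adjusted p = 0.0155) and Procr, the protein C receptor, fell by 0.60 (adjusted p = 0.0288). Icam1 was at -0.56 (adjusted p = 0.0201), under the fold threshold, and of the 2 Vcam1 probes 1 was called lower. Of 5 lymphatic genes with a kept probe, 2 were called lower and 0 higher (0 higher also at an unadjusted p under 0.05), with a median of -0.61 and a summed signal of 5188 to 8681 intensity units in WT and 2329 to 3444 in Zip13-KO. Pdpn, also found on fibroblasts, fell by 1.66 (adjusted p = 0.0407), and Lyve1, which some macrophages also express, fell by 0.85 (adjusted p = 0.0269). Prox1, the factor that defines lymphatic endothelium, was at 4.53, 4.24 and 5.13 in WT and 4.09, 3.89 and 4.41 in Zip13-KO, a difference of -0.50 (adjusted p = 0.179). Macrophage markers were lower in the same arrays, and their part in these values was not tested.

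By the naming rule, the marker whose probe was brightest stands for each cell type list, which is no ranking of transcripts, since intensities of different probes are not comparable. Sdpr, known as Cavin2 (endothelial), rose by 0.74 (adjusted p = 0.0421), Cox8b (thermogenic adipocytes) rose by 1.67 (adjusted p = 0.00735) and Csf1r (macrophages) fell by 1.03 (adjusted p = 0.0133). The others were not called or are given above: Mcam (pericytes and smooth muscle) was at 0.19, Cfd (adipocytes) at 0.03, Dcn (stromal) at -0.40, Tnni2 (muscle) at 0.35, Krt18 (mammary) at 0.67 and Hba-a1 (erythroid) at -0.48, with Cd79b for lymphocytes and Lyve1 for lymphatic endothelium. Markers not well above background on every array were Elovl3 (5 of 6 arrays), Cdh1 (5 of 6) and Epcam (3 of 6).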
